A study of Rattus norvegicus with 16 samples.

Results

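The 3 Gadd45 genes, Gadd45a, Gadd45b and Gadd45g, were followed over time in organotypic slice cultures of rat hippocampus (brain slices kept alive in culture), in the pyramidal cell fields CA1 and CA3. They were chosen by symbol from 10411 genes named by 1 or more probe sets, with the time courses of these arrays already known, and each was read by 1 probe set (Gadd45a, 1368947_at; Gadd45b, 1372016_at; Gadd45g, 1388792_at). The 16 expression arrays formed 8 groups of 2: CA1 or CA3, each at the labelled times T0, T30m (taken as 30 min), T3h (3 h) and T12h (12 h). Oxidative stress is the topic in the series title. The sources used here do not give the agent, its dose, whether T0 came before it, or the age and strain of the animals. No group carries a named genetic change, and the replicates are called biological without a statement that they came from separate animals, so the p-values measure only the spread between these samples.

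GADD45 proteins are small acidic proteins without enzyme activity of their own that act by binding other proteins. They bind MAP3K4, the kinase at the head of a cascade to p38 and JNK, and they also bind PCNA, the cell cycle inhibitor p21 and the Cdk1/cyclin B complex, through which they hold dividing cells before mitosis. They have been tied to active DNA demethylation together with excision repair enzymes, and in hippocampal neurons Gadd45b is known as an activity-induced gene. Gadd45a is known as the DNA damage-induced gene of the family, Gadd45b was described as a gene induced by TGF-beta and NF-kB, and Gadd45g as a cytokine-induced gene.

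Averaged over both regions, Gadd45b and Gadd45g had nearly the same time course and Gadd45a did not. The stretches before the transcription starts of these genes are shown as a description. They are the 250 bases before the start, or 30-base pieces of them, from RefSeq on build GRCr8, 5′ to 3′ on the gene's strand, which is the minus strand for all 3 genes. Capitals mark matches on either strand to the CCAAT box, the GC box, the TATA box, the E-box, the octamer and the C/EBP-ATF element, whose letters follow in the text and which were picked with these sequences in view.
Gadd45a, chr4:97486800-97487049: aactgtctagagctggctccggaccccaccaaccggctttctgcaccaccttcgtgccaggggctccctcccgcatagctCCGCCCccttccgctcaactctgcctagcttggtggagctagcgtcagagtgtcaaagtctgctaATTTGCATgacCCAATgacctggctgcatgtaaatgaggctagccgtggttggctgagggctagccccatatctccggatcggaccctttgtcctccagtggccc
Gadd45g, chr17:13530352-13530601: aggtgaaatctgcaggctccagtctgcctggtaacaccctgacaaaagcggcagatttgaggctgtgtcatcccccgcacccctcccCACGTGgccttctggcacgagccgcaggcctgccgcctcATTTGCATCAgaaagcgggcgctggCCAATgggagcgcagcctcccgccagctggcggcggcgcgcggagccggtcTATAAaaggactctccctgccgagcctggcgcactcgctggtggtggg
Gadd45b, chr7:9430879-9430908, bases 190 to 161 before the start: agccctgaccccCACGTGgggccgccggag
Gadd45b, chr7:9430833-9430862, bases 144 to 115 before the start: ttcctacctccagCCAATctcagcgcaggc
Gadd45b, chr7:9430794-9430823, bases 105 to 76 before the start: ctttgtgcctccaCCAATggatGGGCGGtg
Gadd45b, chr7:9430741-9430770, bases 52 to 23 before the start: ctcccGGGCGGtcTTATAAgcggcttgcag

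The Gadd45b pieces lie inside the annotated span of the gene, since a predicted transcript starts farther upstream. The E-box CACGTG was in the windows of Gadd45b and Gadd45g, once each, and not in that of Gadd45a, and 5.73% of 27457 promoter windows of 250 bases held it. The TATA box TATAA was read once in Gadd45g, 44 to 48 bases before the start, and on both strands at overlapping positions in Gadd45b, 34 to 39 bases before it, but not in Gadd45a; 24.3% of windows held it. The CCAAT box, spelled by its name, was in all 3 windows, with 2 matches in Gadd45b, and in 34.2% of all windows. The GC box GGGCGG was found 3 times in Gadd45b and once in Gadd45a, and in 32.1% of all windows. The octamer ATTTGCAT, in 1.51% of windows, was shared by Gadd45a and Gadd45g, and in Gadd45g it overlapped TGATGNAA, the C/EBP-ATF element that 3.27% of windows held. The AP-1 site TGANTCA (6.41% of windows), the cAMP response element TGACGTCA (1.68%), the NF-kB consensus (6.33%) and the CArG box (1.49%) were not matched in any of the 3 windows. These are matches of letters in a short window and say nothing of binding. The part of these matches in the time courses was not tested.

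Gadd45b was higher on every array after T0 than on every array at T0, and its mean over both regions went up from each time to the next. In CA1, on the log2 scale, the level was 5.86 and 6.14 at T0, 8.27 and 7.31 at 30 min, 7.81 and 8.55 at 3 h, and 9.39 and 9.35 at 12 h (replicate 1, then replicate 2). In CA3 it was 5.62 and 6.60 at T0, 7.16 and 6.70 at 30 min, 8.48 and 8.41 at 3 h, and 9.60 and 8.95 at 12 h. The lowest later array, the second CA3 array at 30 min, lay just above the highest T0 array, and the 12 h arrays lay above all others. Averaged over both regions, the log2 difference from T0 was 1.30 at 30 min, 2.26 at 3 h and 3.27 at 12 h, each ± 0.29 (SE), which is 2.47-fold, 4.79-fold and 9.65-fold. On the log2 scale, the step from 30 min to 3 h was 0.95 and the step from 3 h to 12 h 1.01. Of the average log2 difference at 12 h, 39.9% was there at 30 min and 69.1% at 3 h.

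Averaged over both regions, Gadd45g had the same shape, but its CA1 means at 30 min and 3 h were equal at 8.46. In CA1 its log2 level was 6.20 and 6.55 at T0, 8.80 and 8.12 at 30 min, 7.76 and 9.16 at 3 h, and 9.28 and 9.89 at 12 h. In CA3 it was 5.29 and 6.46 at T0, 6.88 and 7.24 at 30 min, 8.12 and 9.41 at 3 h, and 9.49 at 12 h on both arrays. No later array fell within the T0 range. At 3 h the first and second arrays stood apart in both regions, the second being the higher. The average log2 difference from T0 was 1.63 (30 min), 2.48 (3 h) and 3.41 (12 h), each ± 0.39 (SE), or 3.10-fold, 5.59-fold and 10.6-fold. Of the 12 h log2 difference averaged over regions, 47.9% was there at 30 min and 72.8% at 3 h.

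Gadd45a was uneven between replicate arrays and did not follow the other two. In CA1 its log2 level was 4.84 and 5.06 at T0, 6.41 and 7.33 at 30 min, 6.65 and 4.84 at 3 h, and 6.54 and 5.73 at 12 h. In CA3 it was 4.91 and 5.54 at T0, 4.42 and 7.57 at 30 min, 4.86 and 5.92 at 3 h, and 6.65 and 6.74 at 12 h. The CA3 arrays at 30 min were the lowest and the highest of all 16, and only the 12 h arrays all lay above T0. The average log2 difference from T0 was 1.34 at 30 min, 0.48 at 3 h and 1.33 at 12 h, each ± 0.63 (SE), and the step from 30 min to 3 h was -0.87. Single arrays moved these values: the 30 min difference was 2.13 without the first CA3 array of that time and 0.56 without the second, and the 3 h difference was 0.027 without the first CA1 array of that time and 0.93 without the second. Leaving out the first or the second CA3 array of 3 h gave 0.74 and 0.21 there. The mean over the 4 T0 arrays, 5.09, lay below the array medians, which ran from 5.81 to 5.94.

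**Figure D1:**
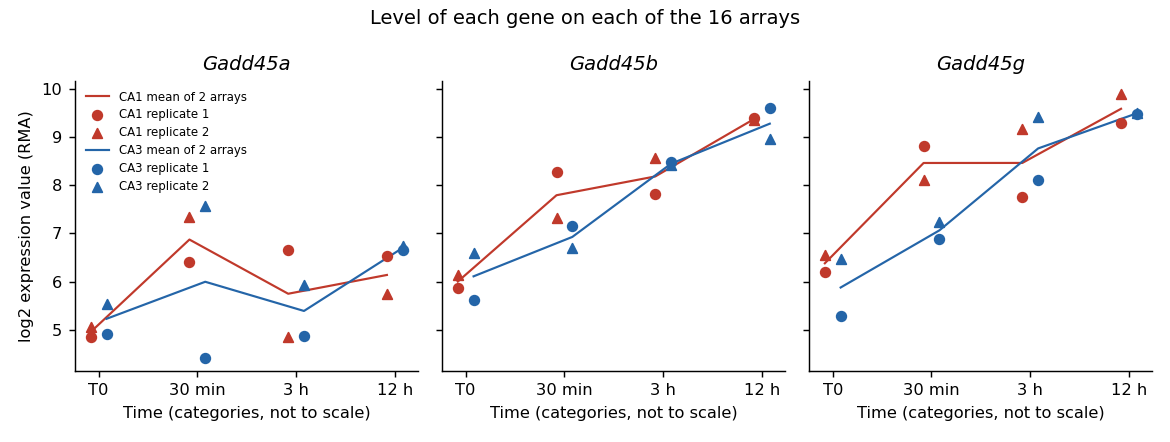
Log2 level (vertical axis) of Gadd45a, Gadd45b and Gadd45g on each of the 16 arrays against time (T0, 30 min, 3 h, 12 h), with points for single arrays and lines through the means of the 2 arrays of CA1 and of CA3. Gadd45b and Gadd45g reached between 8.95 and 9.89 at 12 h, while the Gadd45a arrays at 30 min spread from 4.42 to 7.57.

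These time differences are a description without a test, because the genes were picked with them known. All 4 arrays of a later time lay above all 4 T0 arrays for Gadd45b and Gadd45g at each of the 3 later times, and for Gadd45a at 12 h alone. Among the 10411 genes, the share that stood above T0 in that way was 1.97% for 30 min, 2.85% for 3 h and 8.48% for 12 h. For Gadd45a, 3 of 4 arrays were above all T0 arrays at 30 min and 1 was below them all, and at 3 h 2 of 4 were above. Ranked by average difference from T0 over 10411 genes, Gadd45g was at position 19 at 30 min, 1 at 3 h and 6 at 12 h, Gadd45b at 53, 3 and 8, and Gadd45a at 45, 624 and 266. Each time is compared with the same 4 T0 arrays, so the 3 differences of a gene are not independent.

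Arrays from CA1 and CA3 that share a time and a replicate number deviated together from their group means, so the 4 arrays of a time hold fewer independent measurements than their number. With these arrays averaged in pairs, the SE of the 3 differences was 0.33 for Gadd45b, 0.47 for Gadd45g and 0.63 for Gadd45a. In these bulk tissue samples, fewer cells of a type and less RNA per cell cannot be told apart.

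By region, the order of the 8 group means of Gadd45b ran from both T0 groups, through CA3 at 30 min, CA1 at 30 min, and CA1 and CA3 at 3 h, to CA3 and CA1 at 12 h. The widest step between neighbouring means was 0.87, from CA3 to CA1 at 30 min. Next were 0.83 from 3 h to 12 h in CA3 and 0.82 from T0 to 30 min in CA3. Gadd45g had the same order apart from the T0 groups. Its widest steps were 1.40 from CA3 to CA1 at 30 min and 0.73 from 3 h to 12 h in CA3. After these came 0.68 from CA1 at T0 to CA3 at 30 min. Its CA1 means at 30 min and 3 h were equal at 8.46. In the order for Gadd45a, the widest step was 0.56, from CA1 to CA3 at 12 h, and CA1 at 30 min stood highest with a mean of 6.87. Each group holds 2 arrays, so these orders and steps are a description.

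**Figure D2:**
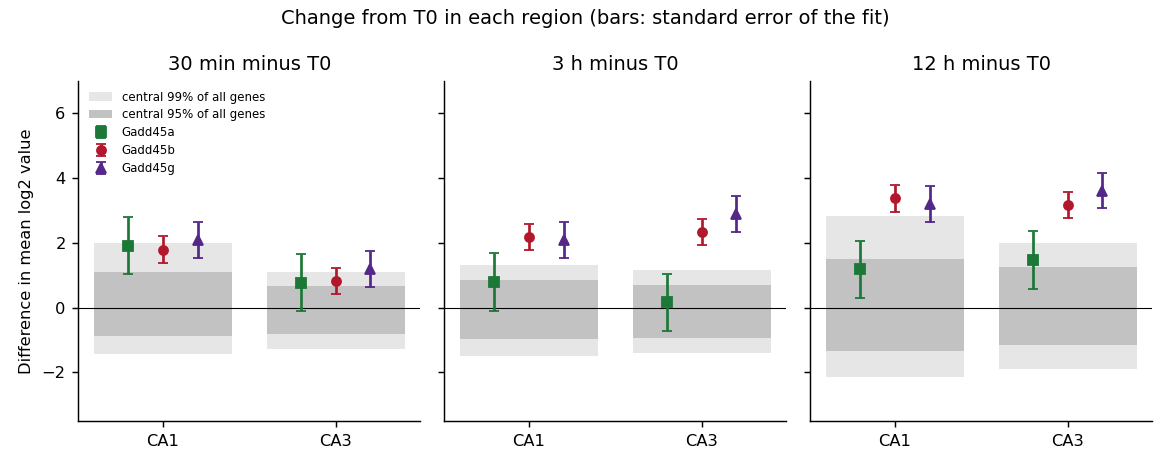
Log2 difference from T0 (vertical axis) of the 3 genes at 30 min, 3 h and 12 h in CA1 and CA3, as the group mean minus the T0 mean of that region with bars of 1 SE, over bands for the central 95% and 99% of 10411 genes. At 12 h Gadd45b (3.37 in CA1, 3.17 in CA3) and Gadd45g (3.21 and 3.61) lay above the 99% band of both regions, and Gadd45a did not.

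The question that the region design adds is whether CA1 and CA3 differ, which the choice of genes did not use. For Gadd45g the CA1 level was higher than the CA3 level by 0.42 ± 0.28 (SE) on average over the 4 times, with a 95% interval of -0.19 to 1.03 and a limma adjusted p of 1. In the 8 CA1 and CA3 pairs of the same time and number it was higher in CA1 in 5, and the differences over all 8 ran from -0.36 to 1.92. With each pair as a block the interval was 0.092 to 0.76 and the limma adjusted p 0.318 over all probe sets. For Gadd45b the difference was 0.15 ± 0.20 (interval -0.30 to 0.60; limma adjusted p = 1, with the block 0.884), with 5 of 8 pairs higher in CA1. For Gadd45a it was 0.10 ± 0.44 (interval -0.88 to 1.08; limma adjusted p = 1, with the block 0.992), with 2 of 8 pairs higher in CA1. Over all 15866 probe sets, 0 passed an adjusted p of 0.05 in this comparison (0%; 510 had an unadjusted p under 0.05), and 33 did with the pair block (0.208%).

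At 30 min the differences from T0 were larger in CA1 for all 3 genes, by 1.15 ± 1.25 for Gadd45a, 0.97 ± 0.58 for Gadd45b and 0.90 ± 0.78 for Gadd45g, and none passed the test of the difference (limma adjusted p = 1 for each). Leaving out 1 array gave 0.49 to 1.46 for Gadd45b, lowest without the second CA3 array of T0, nearly as low without the first CA1 array of 30 min (0.49), and highest without the first CA3 array of T0. For Gadd45g it gave 0.31 and 1.48 without the same T0 arrays, and 0.55 without the first CA1 array of 30 min. For Gadd45a the value was -0.43 and 2.72 without the first and the second CA3 array of 30 min. The CA1 array of the first 30 min pair was higher than the CA3 array by 1.99, 1.12 and 1.92 for Gadd45a, Gadd45b and Gadd45g, the widest gap among the 8 pairs of each gene. In the second 30 min pair the gaps were -0.24, 0.61 and 0.87. With the pair block, the interval for Gadd45b at 30 min was 0.092 to 1.86, again with a limma adjusted p of 1. At 3 h the CA1 difference from T0 less the CA3 difference was 0.63 for Gadd45a, -0.16 for Gadd45b and -0.80 for Gadd45g, and at 12 h -0.29, 0.20 and -0.41, each with an adjusted p of 1. The intervals, for example -1.07 to 1.48 for Gadd45b and -2.14 to 1.32 for Gadd45g at 12 h, leave room for sizeable differences either way. In all 3 of these region comparisons 0 of 15866 probe sets passed (0%; 133, 55 and 71 had an unadjusted p under 0.05).

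**Figure D3:**
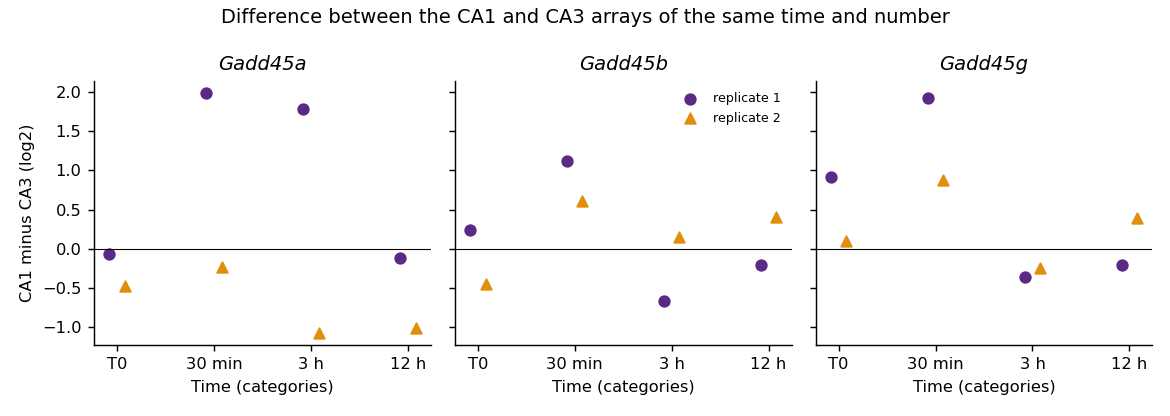
CA1 minus CA3 log2 difference (vertical axis) of each gene for the 8 pairs of arrays that share a time and a replicate number, by time. The pair at 30 min of replicate 1 is the highest for each gene, at 1.99, 1.12 and 1.92, and the other pairs lie on both sides of 0.

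Across the 16 arrays, Gadd45b and Gadd45g were the closest pair of the family, with a Pearson correlation of 0.95 (Spearman 0.93) and 0.98 over the 8 group means. Gadd45a had 0.32 with Gadd45b and 0.41 with Gadd45g over the same arrays. The arrays share times, and the correlation over arrays holds the common time course: the deviations of the arrays from their own group means had the same sign for Gadd45b and Gadd45g in 4 of 8 groups. Among 5205 other genes with a mean level at or above the median over genes, the gene most like Gadd45b by Pearson correlation over the 16 arrays was Gadd45g, and the reverse also held. By Spearman correlation Chac1 came first for Gadd45b (0.97), ahead of Gadd45g (0.93). Seen from Gadd45a, again by Pearson, Gadd45g ranked 1268 and Gadd45b 1685 of 5206.

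By Pearson, the genes most like Gadd45b after Gadd45g were Chac1, a glutathione-degrading enzyme of the ATF4 stress response (0.92), Rnf185, a ubiquitin ligase of the endoplasmic reticulum (0.91), Trib3, a pseudokinase of the same stress response (0.87), and LOC102549726 (0.87). After Gadd45b, those most like Gadd45g were Rnf185 (0.89), Fosb, an AP-1 subunit (0.88), Ddit3, the stress factor CHOP (0.87), and Ipmk, an inositol polyphosphate kinase (0.87). The genes lowest against Gadd45b and Gadd45g were genes of dividing cells, with Top2a (-0.91 and -0.92), Cdca3 (-0.86 and -0.92), Plk1 (-0.86 with Gadd45b) and Cdk1 (-0.90 with Gadd45g). By Pearson, Gadd45a was nearest to a different set, led by Ndufs3, a subunit of respiratory complex I (0.87), Kcmf1 (0.85), Zfand3 (0.85), Camlg (0.85) and Get1 (0.84), the last 2 of the machinery that inserts tail-anchored membrane proteins, and it was farthest from Bin3 (-0.85), Bin2 (-0.78) and Gins4 (-0.78). By Spearman Kcmf1 came first (0.90) and Ndufs3 at rank 10. By Pearson over the 8 group means Ndufs3 ranked 10, and Kcmf1, Zfand3, Camlg and Get1 ranked 272, 140, 165 and 425. These values describe likeness over 16 arrays and were not tested.

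**Figure D4:**
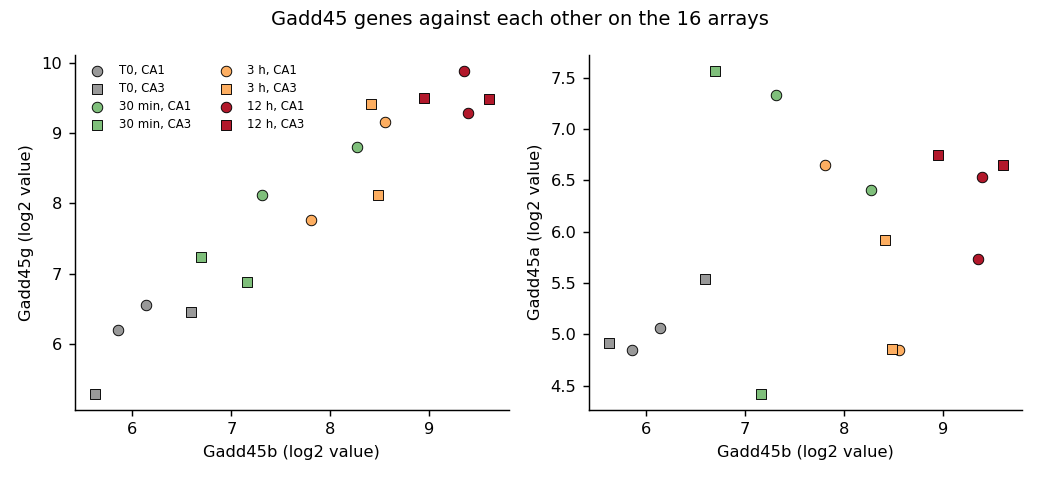
Log2 level of Gadd45g (left) and Gadd45a (right) on the vertical axis against that of Gadd45b on the horizontal axis, with 1 point for each of the 16 arrays, coloured by time and shaped by region. Gadd45g and Gadd45b lie along a line (Pearson 0.95), and Gadd45a scatters widely against Gadd45b (0.32).

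The proteins that GADD45 acts on or that act on its genes were taken as 6 lists, 89 of whose 123 genes had a probe set with 1 named gene; Map3k4, Tet3 and Ercc5 were not analysed here. At 30 min and at 3 h 0 genes of any list passed the limma test, and at 12 h 14 did, 7 higher and 7 lower than T0. Over all probe sets 0.0063% were called higher and 0.101% lower at 30 min, 0.0252% and 0.158% at 3 h, and 0.838% and 1.23% at 12 h, where the median 12 h difference of all genes was -0.035. With pair means 0 of the 14 passed (limma adjusted p from 0.11 to 0.323), so these calls count the paired CA1 and CA3 arrays as separate samples. Leaving out 1 array gave between 1 and 14 calls. The lists were chosen with earlier results of these data known, so their calls describe these arrays and are not independent support.

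Of 14 genes of the MAP kinase cascade, 2 passed at 12 h. Jun, a target of JNK and an AP-1 subunit, was higher by 1.15 ± 0.20 (SE, limma adjusted p = 0.024). Mapkapk2, a p38 substrate kinase, was lower (-0.72 ± 0.13). Jun kept its call in 10 of 16 fits that left out 1 array and Mapkapk2 in 8. The other 12 did not pass, among them Mapk14, which encodes p38 alpha (-0.058), Mapk8, which encodes JNK1 (0.44), and Dusp1, a MAP kinase phosphatase (1.72; limma adjusted p = 0.149), and the list's median was 0.086. Jun was also read by 2 other probe sets, with differences of 1.72 and 1.61 at 12 h (limma adjusted p = 0.00461 and 0.0523, of which the second did not pass).

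Of 13 cell division and replication partners, 0 were higher and 5 lower at 12 h: Cdk1 (-2.04), Ccnb1 (-1.35) and Ccnb2 (-2.12), which make up the Cdk1/cyclin B complex, and the mitotic kinases Aurka (-1.42) and Plk1 (-0.82). In the 16 fits that left out 1 array, Cdk1 kept its call in 4, Plk1 in 8, Ccnb1 and Ccnb2 in 10 each and Aurka in 11. Pcna did not pass (-0.61; limma adjusted p = 0.514), nor did Ccnd1, cyclin D1 (-2.20; 0.0909), and the median was -0.61. The markers of dividing cells share genes with this list, Cdk1, Ccnb1 and Aurka among them, so they are not separate evidence. Of these markers, 7 of 7 had differences below 0 at each of the 3 times. Their medians were -1.10 at 30 min, -1.13 at 3 h and -1.42 at 12 h. The number past the limma threshold was 2, 3 and 7 at these times, and 0 at each with pair means. Their mean level on single arrays was 6.80 to 7.47 at T0 and 5.12 to 5.51 at 12 h. The part of dividing cells in the Gadd45 values was not tested.

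Of 9 demethylation and excision repair partners, Tdg, a DNA glycosylase, was higher at 12 h by 0.90 ± 0.20 and Tet2, a 5-methylcytosine oxidase, by 1.21 ± 0.17 (limma adjusted p = 0.0478 and 0.00951). The other 7 did not pass, and the median was -0.0095. Tet2 kept its call in 15 of 16 fits that left out an array and Tdg in 5.

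Pathways known to induce the genes were taken next. Of 11 genes of the NF-kB pathway 0 passed (median -0.24, 1 with an unadjusted p under 0.05), with Nfkbia, the NF-kB inhibitor, at -0.33, Rela at -0.21 and Nfkb1 at -0.51. All 11 differences were below 0 at 12 h, and 9 were above 0 at 3 h. Of 19 TGF-beta and SMAD genes 3 passed at 12 h: Inhba, the activin A subunit (2.02 ± 0.22; limma adjusted p = 0.00267), and Smad1 (0.94) were higher, and Id1, a BMP target, was lower (-1.65). Tgfb1 (-0.26) and Smad7 (0.17) did not pass, and the median was -0.11. Smad1 had another probe set at 0.37, which did not pass. Inhba kept its call in every fit that left out 1 array, while Smad1 and Id1 lost theirs in most.

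Of 23 transcription factors known to act on Gadd45 genes, 2 were higher at 12 h. Atf4, the effector of the integrated stress response, was higher by 1.19 ± 0.21 (limma adjusted p = 0.0217). Creb1, the cAMP response factor, was higher by 0.89 ± 0.16 (limma adjusted p = 0.024). Atf4 and Creb1 each kept the call in 10 of 16 fits that left out 1 array. The other 2 Creb1 probe sets, of lower mean signal, did not pass, at 0.028 and -0.031. Atf3 (1.85; 0.082), Ddit3 (1.27; 0.102) and Foxo3 (0.11; 0.896), given with their limma adjusted p, did not pass, and the list's median was 0.20.

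**Figure D5:**
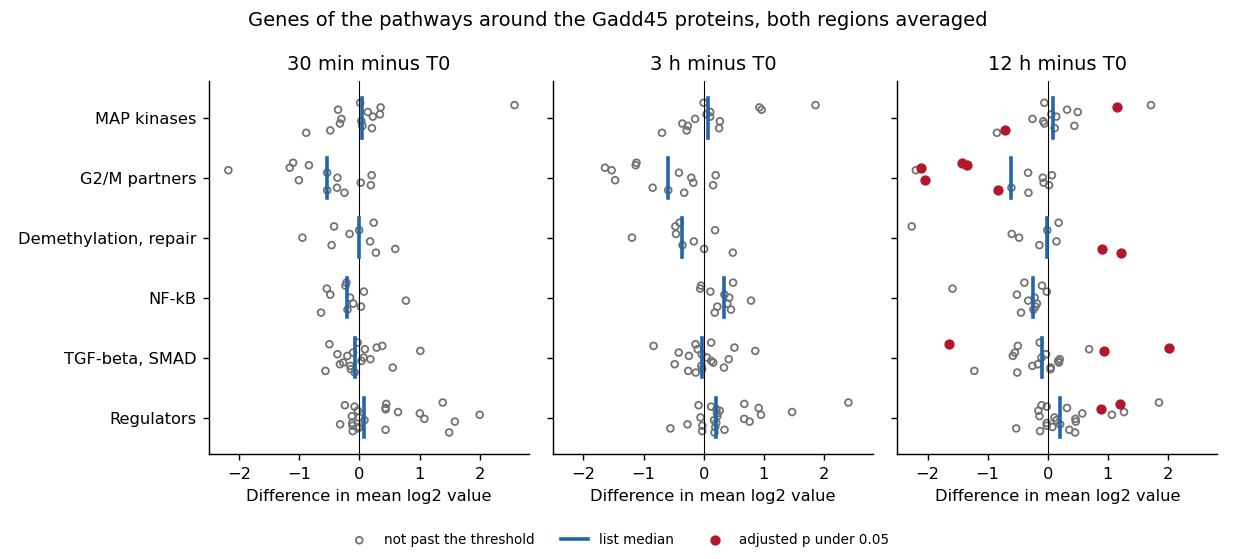
Log2 difference from T0 (horizontal axis, both regions averaged) at 30 min, 3 h and 12 h of every measured gene of the 6 pathway lists, 1 row for each list, with filled points for genes past an adjusted p of 0.05 and a bar at each list's median. Filled points appear at 12 h alone, where the cell division list holds 5 lower and 0 higher genes past the threshold, and the NF-kB list holds 0.

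Markers of the tissue's cells moved with time as well. Excitatory neuron markers had a mean level of 5.59 to 8.17 on the T0 arrays and 8.46 to 8.89 at 12 h, with 7 of 7 above 0 in difference (median 2.14) and 2 past the test. Microglial markers were at 8.06 to 8.51 at T0 and 6.14 to 7.46 at 12 h (median -1.93; 11 of 12 below 0, 4 past the test), and astrocyte markers at 8.55 to 9.36 and 8.15 to 9.19 (median -0.16; 0 of 9 passed). The microglial and astrocyte means lay above the array medians (5.81 to 5.94) on every array. The lowest excitatory neuron mean, 5.59 at T0, lay below those medians. These means join markers of unequal level, such as Gfap (mean 12.6) and Fgfr3 (3.91) among the astrocyte markers. Endothelial and mural markers were low throughout, from 4.29 to 4.95. Inhibitory neuron markers had 7 of 8 differences above 0 at 12 h (median 0.49, 1 past the test), and oligodendrocyte markers 4 of 7 (median 0.090, 0 past it). Below 0 at 12 h were 4 of 4 oligodendrocyte precursor markers (median -0.91, 0 past the test). The same held for 6 of 8 fibroblast and meningeal markers (median -0.36, 1 past it). With pair means 0 excitatory neuron, 0 inhibitory neuron, 0 microglial and 0 fibroblast and meningeal markers passed at 12 h. The part of these markers in the Gadd45 differences was not tested.

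Array quality measures also moved with time. The mean of 24 control probe sets for spiked RNA averaged 6.58 on the T0 arrays, 5.45 on those of 30 min, 6.07 on those of 3 h and 4.92 on those of 12 h. The second arrays of 30 min (4.51 in CA1, 4.26 in CA3) and of 12 h (4.49 and 4.45) were the lowest. Those second 30 min arrays held the 2 highest Gadd45a levels, and without the second arrays of 30 min and 12 h the Gadd45a difference at 30 min was 0.33. With the spike signal as a covariate, the Gadd45a differences were 0.38 at 30 min and 0.039 at 3 h. Those at 12 h were -0.086 for Gadd45a, 3.82 for Gadd45b and 3.55 for Gadd45g. The spike signal ran from 6.29 to 6.85 on the T0 arrays and from 4.45 to 5.39 on the 12 h arrays. Without overlap, the covariate values at 12 h are extrapolations, and spike signal and time cannot be told apart there. On the second arrays of 3 h Gadd45g was higher than on the first in both regions. These second arrays had the widest gap between 3′ and 5′ GAPDH controls (3.93 in both regions). Without them the Gadd45g difference at 3 h was 1.81.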

How the data were processed

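RNA was measured on 16 Affymetrix rat arrays, 8 groups of 2. The authors deposited log2 expression values, which come from RMA according to the labels (per the submitters' processing notes); its version is not given in the sources used here. RMA gives arrays 1 distribution, so changes are relative to the other genes. Of 15923 probe sets, 57 controls were left out and 15866 tested: 12783 had 1 gene symbol, 312 several and 2771 none. The probe set with the highest mean stood for a gene. The small number of arrays limits the precision.

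Group means were estimated in limma (version 3.58.1, R 4.3.3), using Benjamini-Hochberg adjustment over all tested probe sets and a threshold of 0.05. Scripts were tested on simulated data with independent arrays, which does not cover the shared deviations of CA1 and CA3 arrays. The members and lists were chosen with earlier results of these data known. The members' time differences therefore carry no test, and the tests of the list genes are not independent support. Named genes were the members, up to 4 genes past the threshold in each list, a fixed set of textbook members, and the 5 most and 3 least similar genes to each member; Dusp1 and Ccnd1 were singled out after their values were seen.

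Replicate numbers were taken to pair CA1 and CA3 arrays of a time, because their deviations from group means correlated at 0.57 to 0.67 in all 4 times; between T0 and later times the values were -0.24 to 0.31, and between later times 0.30 to 0.66, so replicate numbers also tie the arrays of 30 min, 3 h and 12 h. The block was the pair for region comparisons and the number for time comparisons. Alternatives were the block, cyclic loess, a minimum mean of 5, a variance trend, a spike covariate, left-out arrays and, chosen after seeing the data, pair means. 1 gene list and 1 motif are not reported here.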

Additional observations from a re-analysis of the deposited data

How the results depend on the processing

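Over 24 alternatives the Gadd45b and Gadd45g differences from T0, averaged over regions, stayed above 0 at each time; Gadd45b moved to 3.82 at 12 h with the spike covariate, and Gadd45g to 1.81 at 3 h without the second arrays of 3 h. Gadd45a moved to 0.33 at 30 min without the second arrays of 30 min and 12 h, and to -0.086 at 12 h (-0.21 in CA1) with the spike covariate. The T0 and 12 h arrays did not overlap in spike signal, so the covariate values at 12 h are extrapolations. No CA1 against CA3 test of the 3 genes passed under any alternative run, the replicate block included (Gadd45g limma adjusted p = 0.318), but directions turned. Leaving out 1 array, the Gadd45a region difference ranged from -0.29 to 0.49. Its CA1 less CA3 difference from T0 ranged from -0.43 to 2.72 at 30 min, -0.27 to 1.53 at 3 h and -0.69 to 0.11 at 12 h. For Gadd45b the range was -0.64 to 0.33 at 3 h and -0.28 to 0.69 at 12 h, and for Gadd45g -0.99 to 0.17 at 12 h. Without the second arrays of 30 min and 12 h the 12 h value was 0.16 for Gadd45a and -0.10 for Gadd45b. The 14 list calls at 12 h became 22 with the replicate block, 1 with the spike covariate, 0 without the second arrays of 30 min and 12 h, and 0 with pair means. They fell to 4 without the CA1 T0 or the CA1 12 h array of replicate 1, 2 without CA1 T0 replicate 2, 3 without CA1 12 h replicate 2, 6 without CA3 12 h replicate 1, 4 without CA3 T0 replicate 2 and 1 without CA3 12 h replicate 2. Calls over all probe sets at 12 h were 328, 1302 with the block, 4 with the covariate, 0 with pair means and 55 to 474 without 1 array; at 30 min they were 17 (49 with the block, 0 with pair means) and at 3 h 29 (92 and 0). The cause was not tested. Reading other probe sets of the genes was not run, since each gene has 1.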

Other observations

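Gadd45gip1, whose protein binds GADD45 proteins and belongs to the mitochondrial ribosome, was picked after its name was seen in the annotation. Its mean log2 level over the 4 arrays was 8.22 (T0), 7.93 (30 min), 8.27 (3 h) and 8.01 (12 h). At 12 h its difference from T0 was -0.22 ± 0.26 (SE; limma adjusted p = 0.777), and 2 of 4 arrays were above and 2 below all T0 arrays.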
